A study of Mus musculus with 12 samples.

Results

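The genes described here are 10 purinergic receptors and nucleotide-degrading enzymes, taken by symbol from the 18376 genes of the normalized count table. All 10 were listed. They are the ectonucleotidases Entpd1 and Nt5e, the adenosine receptors Adora2a, Adora2b and Adora3, the P2Y receptors P2ry2, P2ry6 and P2ry14, and the P2X receptors P2rx4 and P2rx7. They were measured by RNA sequencing in 12 libraries of macrophages derived from bone marrow (BMDMs), cultured from the progenitors of adult wild-type (WT) C57BL6/J mice. All 4 groups, of 3 libraries each, were grown with 50 ng/ml M-CSF. CTRL had no further addition over 6 days, Act received recombinant activin A at 50 ng/ml, FST received FST288 at 250 ng/ml, and Act + FST received both at these doses. Activin A is a member of the TGF-β family, and FST288 is a form of follistatin, an antagonist that captures activin A before it meets its receptors. The culture was used by the study as a substitute for testicular macrophages, so the values describe cells in a dish. Nothing in the labels says that the replicates came from separate cultures or animals, and p-values therefore measure the spread between these libraries, which may be technical.

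ATP that leaves a cell is a danger signal. It opens P2X channels and activates P2Y receptors on neighbouring macrophages until surface enzymes remove it. ENTPD1 (CD39) strips ATP and ADP to AMP, NT5E (CD73) turns AMP into adenosine, and adenosine then acts on its own receptors, of which those encoded by Adora2a and Adora2b raise cyclic AMP and dampen inflammatory activation. In macrophages P2X7 is best known as the ATP sensor that leads to inflammasome activation and release of IL-1β.

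For 3 of these genes the sequence before the transcription start is shown, because they are the enzyme with the largest difference, its partner enzyme in the same pathway and the receptor that fell. Activin receptors signal through SMAD proteins, which bind the short SMAD box (CAGAC or GTCTG). That box, a GC-rich SMAD motif (GGCGC or GCGCC) and the AP-1 motif (TGANTCA) were searched on both strands in the 250 bases before each RefSeq start of GRCm38.p6. Motif letters are in capitals in the sequences, which run 5′ to 3′. The Nt5e window lies on the plus strand of chromosome 9 inside an annotated 5′ UTR, so that just its SMAD boxes are given, which start 69 and 32 bases before the RefSeq start. The P2ry14 window shown is that of the most upstream of its RefSeq starts, on the minus strand of chromosome 3. It holds an AP-1 motif that starts 202 bases before the start and no SMAD box. The Entpd1 stretch, before the most upstream of its RefSeq starts, is on the plus strand of chromosome 19 and holds a SMAD box and a GC-rich motif.
Nt5e, chr9:88327532-88327552: gggagtgtGTCTGcaagcggg
Nt5e, chr9:88327569-88327589: agaggcggGTCTGtccccgcc
Entpd1, chr19:40612234-40612365: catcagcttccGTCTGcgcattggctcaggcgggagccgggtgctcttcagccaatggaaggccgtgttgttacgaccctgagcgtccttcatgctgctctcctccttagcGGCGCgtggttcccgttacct
P2ry14, chr3:59153493-59153742: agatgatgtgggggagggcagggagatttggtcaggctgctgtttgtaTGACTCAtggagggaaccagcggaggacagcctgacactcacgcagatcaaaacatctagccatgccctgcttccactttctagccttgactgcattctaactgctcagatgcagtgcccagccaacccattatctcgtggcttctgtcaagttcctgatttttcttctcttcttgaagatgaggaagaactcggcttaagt

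Promoter entries were found for 8 of the 10 genes, with 14 starts. A SMAD box was present before 10 of these 14 starts, in 7 of the 8 genes, and in 42.2% of the 32851 windows of all genes. Windows of the same gene can overlap, as those of P2ry2 do, so the starts are not independent. Of all windows, 11.7% held at least 2 SMAD boxes, as the Nt5e window does. The GC-rich motif was before 4 of the 14 starts, in 4 of the 8 genes, and in 32.0% of all windows. The AP-1 motif was before 4 of the 14 starts, in 3 of the 8 genes, and in 6.75% of all windows. These matches describe letters in the windows and say nothing of binding.

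Deposited values summed to between 5643708 and 5955400 normalized counts per library, and the read depth before scaling is not known. The 7 macrophage markers were present in all libraries, with summed levels of 10525 to 11683, and none was called in Act versus CTRL. Markers of other cell types were at lower levels. The 4 monocyte markers summed to 1176 to 2001 in CTRL and 2343 to 2631 in Act, with Ccr2 upregulated by 1.04 on the log2 scale (limma adjusted p = 0.043). The 6 neutrophil markers summed to 403 to 653 in CTRL and 361 to 544 in Act, and the granule genes Mpo and Elane fell by 2.01 and 1.64 on the log2 scale. The other 4 neutrophil markers were not called, with log2 differences of 0.090 for S100a8, 0.073 for S100a9, 0.55 for Cxcr2 and -0.53 for Ly6g. Of the mast cell and basophil markers 1 was tested, Kit, with 40, 59 and 34 in CTRL and 16, 32 and 11 in Act. It fell by 1.23 on the log2 scale (limma adjusted p = 0.017). T and NK cell markers summed to at most 4.

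The order of levels among the 10 genes was compared per kilobase of exon, since longer genes collect more reads. In CTRL, Entpd1 was highest with 361 ± 18.3 normalized counts per kilobase (SD, n = 3), followed by P2ry6 with 326 ± 4.65, P2rx7 with 276 ± 18.2 and P2rx4 with 176 ± 6.2. P2ry2 had 46.2 ± 2.82 and P2ry14 had 31.8 ± 0.88 per kilobase. The adenosine receptors and Nt5e made up the low end. Adora3 had 11.3 ± 3.02 and Adora2b 9.03 ± 2.99 per kilobase, and their libraries overlapped. Adora2a with 1.31 ± 0.98 and Nt5e with 0.58 ± 0.20 per kilobase overlapped as well, while other neighbours in the order did not. In unstimulated BMDMs the transcript of the enzyme that removes ATP was therefore the highest of the 10 on this scale. That of Nt5e, which among the 10 encodes the enzyme that makes adenosine from AMP, was the lowest by its mean. Acpp, a gene outside the 10, encodes a phosphatase that can also turn AMP into adenosine. It had 23.6 ± 3.70 per kilobase in CTRL and 71.3 ± 9.91 in Act. These levels were not corrected for reads that share a start position, so distances between the high genes may be understated. Across 18359 genes the highest level was 0.883 normalized counts per exonic base. In Act the order of the upper 6 genes was as in CTRL, but Nt5e reached 13.6 ± 1.98 per kilobase and lay between Adora3 (15.1 ± 1.62) and Adora2b (13 ± 0.94), overlapping with both.

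**Figure D1:**
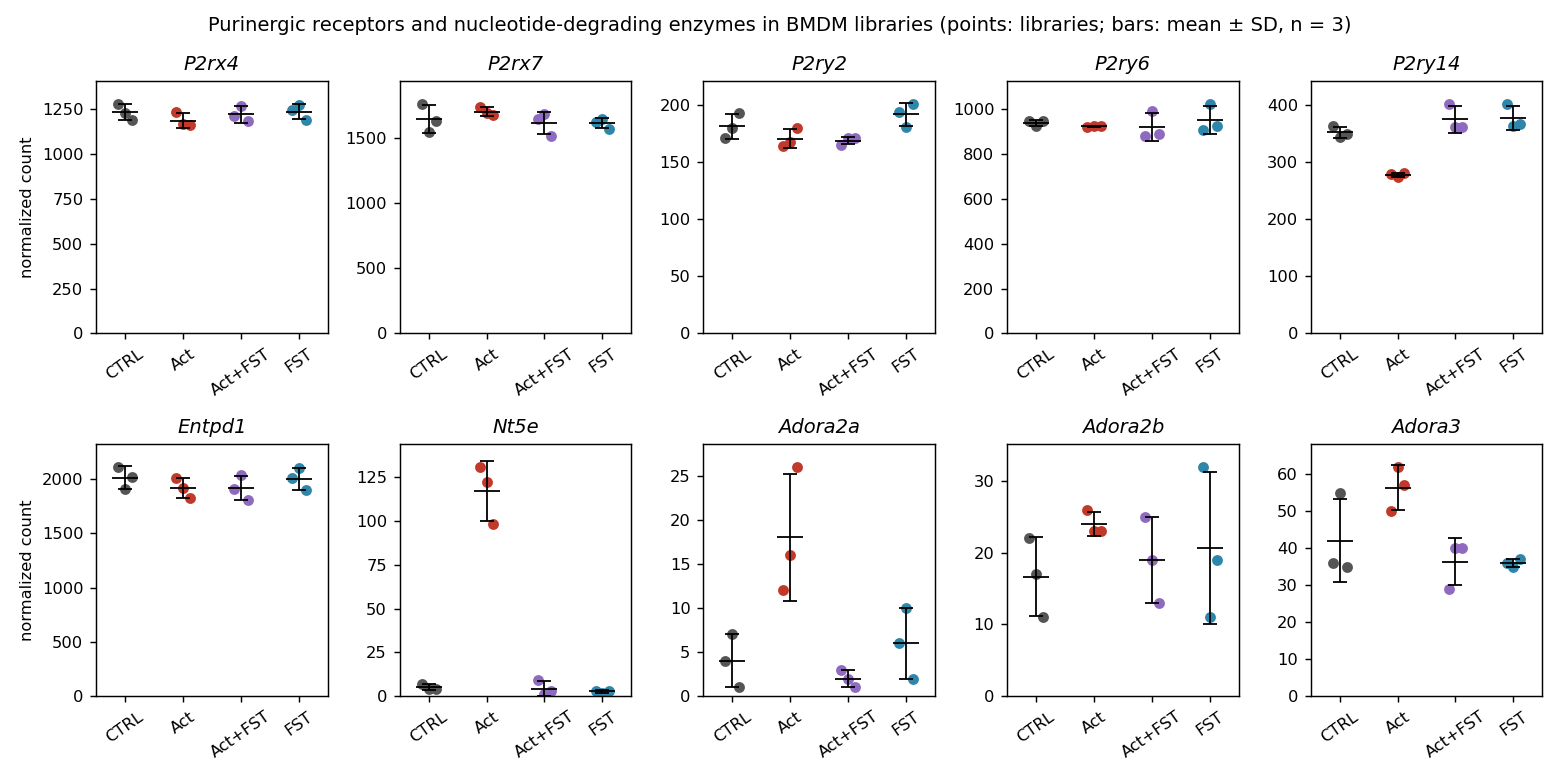
Normalized count (y axis, starting at 0) of each of the 10 genes in the libraries of CTRL, Act, Act + FST and FST. Points are libraries and bars are mean ± SD (n = 3). Nt5e lies between 98 and 131 in Act and between 1 and 9 in the other libraries, and P2ry14 lies between 274 and 281 in Act and between 343 and 401 in the others.

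The first comparison asked what activin A changed over 6 days. Of the 10 genes, 2 were upregulated (Nt5e, Adora2a), 1 was downregulated (P2ry14) and 7 were not called at a limma adjusted p of at most 0.05. Across all 14318 genes tested, 20.2% were called, 10.3% higher and 9.97% lower, and 5.66% were DEGs, called genes that also changed at least 2-fold (2.58% higher and 3.09% lower). Nt5e and Adora2a met the DEG limits. The replicate number as a block raised the 2896 called genes to 4508 and left these 10 genes' calls as they were. All 10 passed the filter of a mean of at least 5, but Nt5e and Adora2a passed through Act alone, since the mean over their other 9 libraries was 4.0 each. Their presence among the tested genes therefore required a difference, and the count of 2 is not support for a change of the group. Without the filter both remained called. The median difference of the 10 genes was 0.013 on the log2 scale, beside 0.0036 for all genes tested.

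Nt5e (ENSMUSG00000032420, mm10 chromosome 9, 88327197 to 88372092, plus strand) encodes CD73, the surface enzyme that makes adenosine from AMP. Its normalized counts were 7, 4 and 4 in CTRL, 131, 122 and 98 in Act, 9, 1 and 3 in Act + FST, and 3, 2 and 3 in FST. All Act libraries were far above the other 9, and the other groups were all at or below 9. The mean rose from 5.0 ± 1.73 to 117 ± 17.1 (SD, n = 3), a ratio of 23.4. On the log2(normalized count + 1) scale the difference was 4.32 (SE 0.47, 95% confidence interval 3.31 to 5.34, limma adjusted p = 4.5e-05). In these cultures, more cells with the transcript and more transcript per cell cannot be told apart.

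As background, CD73 is also a surface marker of mesenchymal stromal cells, and stromal transcripts were present in some libraries. The collagen I genes Col1a1 and Col1a2 summed to 46, 3 and 3 in CTRL, 192, 17 and 9 in Act, 86, 2 and 11 in Act + FST, and 93, 5 and 8 in FST. Replicate 1 was thus the high one in every group. In replicate 1 Nt5e was at 131 in the Act library and at 7, 9 and 3 in those of CTRL, Act + FST and FST, and in the other Act libraries, with collagen sums of 17 and 9, it was at 122 and 98. The part of stromal transcripts in the Nt5e difference was not tested. All 6 stromal markers had values, their sum ranged from 40 to 77 in CTRL and from 28 to 213 in Act, Pdgfra was at 0 in 10 libraries, and Cxcl12 fell by 1.06 on the log2 scale (limma adjusted p = 0.017). Nt5e remained called when any of the 6 libraries compared was left out, with differences from 3.61 to 4.55 over all alternatives.

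**Figure D2:**
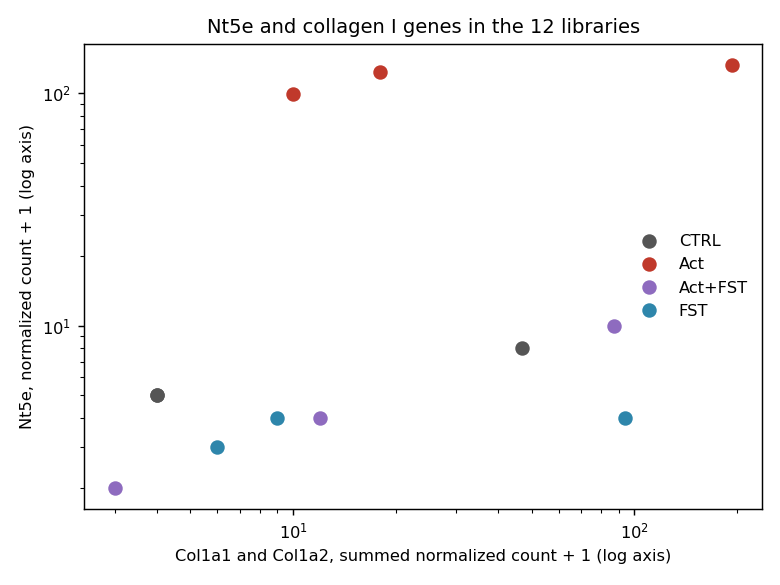
Nt5e (y axis) against the sum of Col1a1 and Col1a2 (x axis), both as normalized count + 1 on log axes, with a point for each of the 12 libraries coloured by group. The 3 Act libraries lie at the top, at 98 to 131 normalized counts of Nt5e, across collagen sums of 9 to 192, and replicate 1 of the other groups, with collagen sums of 46 to 93, lies at 3 to 9.

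Entpd1 (ENSMUSG00000048120, chromosome 19, 40612366 to 40741602, plus strand) encodes CD39, the enzyme upstream of CD73. Its normalized counts were 2115, 1911 and 2019 in CTRL, 2009, 1915 and 1825 in Act, 1908, 2035 and 1809 in Act + FST, and 2011, 2103 and 1897 in FST. The groups overlapped throughout. The Act versus CTRL difference was -0.072 on the log2 scale, with a 95% confidence interval of -0.20 to 0.057 (limma adjusted p = 0.46), so that a change of the size seen for Nt5e lay far outside the interval. Per kilobase of exon, Nt5e stood at 0.129% to 0.215% of the Entpd1 level in the CTRL libraries and at 3.48% to 4.23% in the Act libraries. In Act + FST this share was 0.0319% to 0.306%, and in FST 0.0617% to 0.103%. The ratio of the transcripts of these consecutive enzymes was higher in each Act library than in the other 9. Since the Entpd1 groups overlapped, this ratio restates the Nt5e counts and is not a further result.

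Adora2a (ENSMUSG00000020178, chromosome 10, 75316877 to 75334784, plus strand) encodes the high-affinity adenosine receptor that raises cyclic AMP in myeloid cells. Its counts were low everywhere, with 4, 7 and 1 in CTRL, 12, 16 and 26 in Act, 3, 2 and 1 in Act + FST, and 6, 10 and 2 in FST. The lowest Act library was above the highest library of the other groups. The mean rose from 4.0 ± 3.0 to 18 ± 7.21 (SD, n = 3), and the difference was 2.07 on the log2 scale (SE 0.57, 95% confidence interval 0.83 to 3.32, limma adjusted p = 0.022). Values this low carry a large counting error. The call was lost without CTRL replicate 3 (1.52, limma adjusted p = 0.097), without Act replicate 2 (2.12, limma adjusted p = 0.055) and without Act replicate 3 (1.79, limma adjusted p = 0.091).

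The other adenosine receptors were not called in Act versus CTRL. Adora2b (ENSMUSG00000018500, chromosome 11, 62248984 to 62266453, plus strand), the low-affinity receptor, had normalized counts of 22, 17 and 11 in CTRL, 26, 23 and 23 in Act, 25, 19 and 13 in Act + FST, and 32, 11 and 19 in FST. The Act libraries were above those of CTRL but inside the range of FST. The difference was 0.55 on the log2 scale with a 95% confidence interval of -0.24 to 1.34 (limma adjusted p = 0.34), which leaves room for no change and for more than a 2-fold rise. Absence of overlap is common here: it was found for 4 of the 10 genes and for 35.7% of all genes tested.

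Adora3 (ENSMUSG00000000562, chromosome 3, 105870858 to 105908926, plus strand) encodes the A3 receptor, which lowers cyclic AMP. Its counts were 36, 55 and 35 in CTRL, 50, 62 and 57 in Act, 29, 40 and 40 in Act + FST, and 36, 35 and 37 in FST. CTRL replicate 2 lay within the Act range, and all other libraries outside Act were at 40 or below. The difference from CTRL was 0.44 on the log2 scale (SE 0.20, 95% confidence interval 0.011 to 0.87, limma adjusted p = 0.14) and was called without CTRL replicate 2 (0.65, limma adjusted p = 0.036). Adora3 shares 779 exonic bases, 20.9% of its exons, with Tmigd3 on the same strand, and reads on several genes were left out of the counts, so its level is uncertain.

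P2ry14 (ENSMUSG00000036381, chromosome 3, 59113855 to 59153618, minus strand), the receptor for UDP-glucose and related UDP-sugars, was the gene that fell. Its counts were 362, 343 and 349 in CTRL, 278, 274 and 281 in Act, 401, 361 and 360 in Act + FST, and 401, 362 and 366 in FST. The Act libraries lay close together and below all others. The level fell by 20.9% against CTRL, or by 0.34 on the log2 scale (SE 0.06, 95% confidence interval -0.46 to -0.22, limma adjusted p = 0.0011). It was called under each of the 15 alternatives, although the fold change is below that of a DEG. P2ry14 lies inside Med12l, a gene on the opposite strand with which it shares 0 exonic bases, and since the strand setting of the counting is not known, reads of unspliced Med12l RNA cannot be told apart. The part of transcripts of other cell types in this difference was not tested. Of the neutrophil markers, Mpo and Elane were lower in Act and the other 4 were not called. Kit, of the mast cell and basophil markers, and the stromal marker Cxcl12 were lower as well, while the monocyte marker Ccr2 was higher.

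P2ry14 lies in a cluster with the ADP receptor genes P2ry13 and P2ry12, all on the minus strand of chromosome 3 within 149 kb. These neighbours moved the other way. P2ry12 had normalized counts of 469, 393 and 489 in CTRL and 671, 596 and 606 in Act, a rise of 0.47 on the log2 scale (SE 0.08, limma adjusted p = 0.00093). P2ry13 had 473, 435 and 470 in CTRL and 621, 572 and 539 in Act, a rise of 0.33 (SE 0.07, limma adjusted p = 0.0053). In Act + FST and FST, P2ry12 ranged from 425 to 485 and P2ry13 from 402 to 512, below every Act library.

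**Figure D3:**
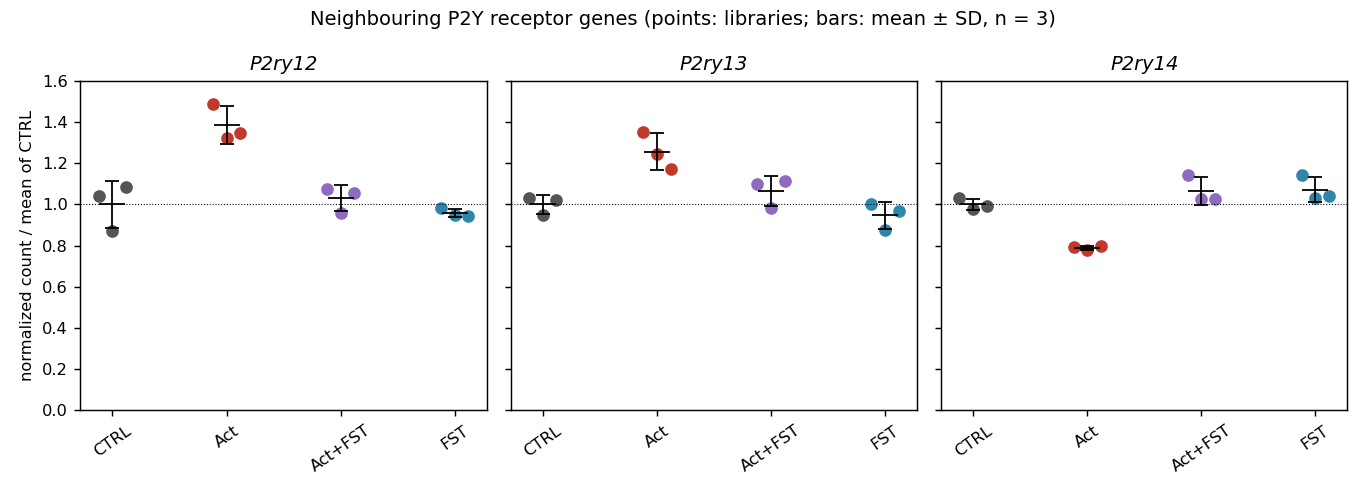
Normalized count divided by the mean of CTRL (y axis, starting at 0) for the neighbouring genes P2ry12, P2ry13 and P2ry14 in the 4 groups, with points for libraries and bars for mean ± SD (n = 3). In Act the P2ry12 and P2ry13 points lie above 1 and the P2ry14 points below 1, while the other groups lie around 1.

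The other 4 nucleotide receptors of the 10 genes showed no called change. P2ry2 (ENSMUSG00000032860, chromosome 7, 100996568 to 101012866, minus strand), a receptor for ATP and UTP, had 171, 180 and 193 in CTRL, 164, 168 and 180 in Act, 165, 171 and 171 in Act + FST, and 194, 181 and 201 in FST. The 95% confidence interval of Act versus CTRL was -0.24 to 0.068 on the log2 scale. P2ry6 (ENSMUSG00000048779, chromosome 7, 100937630 to 100974649, minus strand), the UDP receptor that promotes phagocytosis in microglia, had 946, 925 and 950 in CTRL, 922, 927 and 925 in Act, 882, 992 and 891 in Act + FST, and 908, 1024 and 925 in FST, with an interval of -0.14 to 0.091. P2ry2 and P2ry6 are separated by 21.9 kb.

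P2rx7 (ENSMUSG00000029468, chromosome 5, 122643911 to 122691432, plus strand) had normalized counts of 1764, 1548 and 1636 in CTRL, 1744, 1694 and 1677 in Act, 1645, 1684 and 1521 in Act + FST, and 1629, 1648 and 1573 in FST. The Act libraries lay within the CTRL range, and the 95% confidence interval of the difference was -0.065 to 0.16 on the log2 scale. P2rx4 (ENSMUSG00000029470, chromosome 5, 122707544 to 122729738, plus strand), an ATP-gated channel of the cell surface and lysosomes whose gene lies 16.1 kb away, had 1280, 1232 and 1193 in CTRL, 1236, 1167 and 1160 in Act, 1211, 1271 and 1183 in Act + FST, and 1247, 1274 and 1192 in FST. Its interval was -0.15 to 0.041. For these P2X and P2Y receptors and Entpd1 the intervals ended within a fold of 0.847 to 1.12. Across genes with a mean of at least 100, a fold change of at least 2 was less common at high levels, with 7.16% of genes below 0.05 normalized counts per exonic base and 0.224% of genes at or above 0.3, where Entpd1 (0.352) and P2ry6 (0.324) lie. The part of level in these results was not tested.

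**Figure D4:**
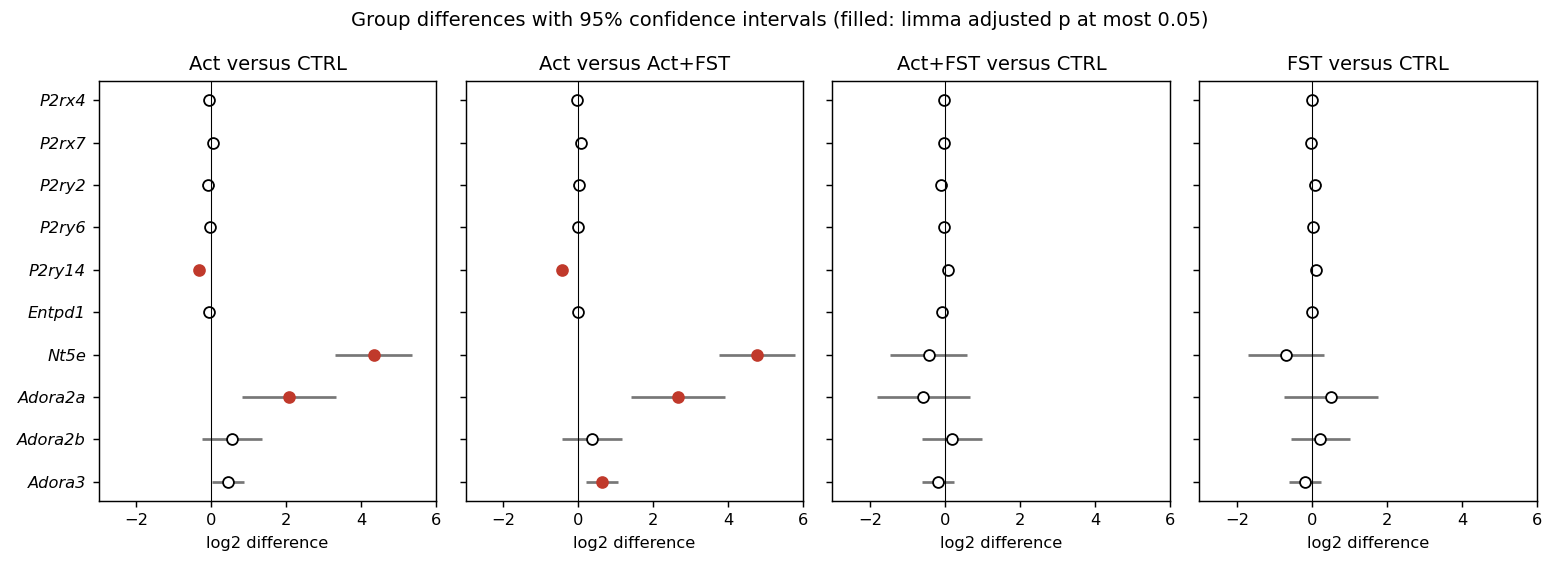
Log2 difference (x axis) of the 10 genes in 4 comparisons, with bars for 95% confidence intervals and filled points for a limma adjusted p of at most 0.05. Nt5e, Adora2a and P2ry14 are filled in both comparisons of Act, Adora3 in Act versus Act + FST, and no gene in the comparisons of Act + FST or FST with CTRL.

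Next, Act was compared with Act + FST, where both groups had received activin A. This comparison shares the Act libraries with the first one and is not independent of it. Here 3 genes were higher in Act, 1 was lower and 6 were not called, beside 21.3% of all genes tested, 11.1% higher and 10.2% lower (4663 instead of 3048 genes with the replicate block, with the same count of 4 among these genes). Nt5e was higher by 4.76 (SE 0.47, limma adjusted p = 2.1e-05), Adora2a by 2.65 (SE 0.57, limma adjusted p = 0.0054) and Adora3 by 0.63 (SE 0.20, limma adjusted p = 0.039) on the log2 scale. P2ry14 fell by 0.43 (SE 0.06, limma adjusted p = 0.00020). Nt5e and Adora2a were again DEGs, beside 5.83% of all genes tested (2.72% higher and 3.11% lower). Both passed the filter through Act alone, so the counts of this comparison are not support for a change of the group. The groups did not overlap for 4 of the 10 genes and for 34.1% of all genes. The Adora3 call was lost without Act replicate 1 (limma adjusted p = 0.0504), Act replicate 2 (0.13), Act replicate 3 (0.099), Act + FST replicate 1 (0.13) or Act + FST replicate 3 (0.0508), and with just the 6 libraries compared (0.056).

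FST288 alone and together with activin A left these genes near CTRL. In Act + FST versus CTRL and in FST versus CTRL, limma called 0 of the 10 genes, and 0 had an unadjusted p under 0.05. In Act + FST versus FST limma called 0, and 1 had an unadjusted p under 0.05, namely P2ry2 with -0.18 on the log2 scale. The groups did not overlap for 0, 1 (Nt5e) and 1 (P2ry2) of the 10 genes, beside 6.68%, 5.55% and 6.54% of all genes tested. Of all genes tested, 0.0% were called in each of these comparisons, and 655, 299 and 502 genes had an unadjusted p under 0.05. With the replicate block 80 genes were called in Act + FST versus CTRL, 0 in FST versus CTRL and 31 in Act + FST versus FST, none of these 10 among them. For the low genes this is a weak statement: the 95% confidence interval of Act + FST versus CTRL was -1.46 to 0.58 on the log2 scale for Nt5e and -1.83 to 0.67 for Adora2a. For P2ry14 it was -0.034 to 0.21.

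Whether the activin effect itself differed with FST288 was tested as an interaction, the difference of Act from CTRL minus that of Act + FST from FST. It was called for Nt5e (4.08, SE 0.66, limma adjusted p = 0.0031), Adora2a (3.16, SE 0.81, limma adjusted p = 0.037) and P2ry14 (-0.33, SE 0.08, limma adjusted p = 0.028), beside 6.74% of all genes tested, 3.99% higher and 2.75% lower (965 genes, and 2337 with the replicate block, with 3 of these 10 genes in both fits). Nt5e and Adora2a also passed a 2-fold difference, beside 2.65% of all genes (1.34% higher and 1.31% lower). Since both were tested through their Act values alone, the count of 3 is not support for a change of the group. For Adora3 it was 0.44 (SE 0.28, limma adjusted p = 0.43). The Nt5e call held under every alternative in which the gene was tested, while those of Adora2a and P2ry14 were lost when some libraries were left out.

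The other genes of the pathway were taken from 6 lists. Of 57 genes listed, 41 had values and 40 were tested. In Act versus CTRL 11 were higher and 5 lower, 4 of them DEGs, beside 20.2% of all genes called (10.3% higher and 9.97% lower) and 5.66% DEGs. With the replicate block 13 were higher and 7 lower. The genes named below for a call with the block alone were named after their values were seen. In both comparisons of Act + FST and FST with CTRL limma called 0, with 1 and 0 genes at an unadjusted p under 0.05.

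Among other nucleotide-degrading enzymes, 2 of 8 tested rose, 1 fell and 5 were not called, and with the replicate block Entpd5 was also called lower (-0.13 on the log2 scale, limma adjusted p = 0.044). Acpp, prostatic acid phosphatase, which can also turn AMP into adenosine, had normalized counts of 198, 176 and 144 in CTRL, 486, 606 and 475 in Act, 167, 135 and 60 in Act + FST, and 153, 166 and 121 in FST. All Act libraries were above all others, with a rise of 1.59 on the log2 scale (SE 0.29, limma adjusted p = 0.0019). Enpp4, a phosphodiesterase that cleaves dinucleotides, had 117, 79 and 88 in CTRL, 293, 281 and 270 in Act, 135, 132 and 103 in Act + FST, and 121, 77 and 81 in FST, a rise of 1.58 (SE 0.18, limma adjusted p = 6.6e-05). Entpd6, a relative of Entpd1, fell by 0.22 (limma adjusted p = 0.034), a call that was lost when any library other than CTRL replicate 1 was left out (limma adjusted p of 0.059 to 0.13).

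Among genes of adenosine uptake and metabolism, 3 of 10 fell, 0 rose and 7 were not called. With the replicate block 2 genes were called higher, Dpp4 (0.99 on the log2 scale, limma adjusted p = 0.0012) and the nucleoside transporter gene Slc29a3 (0.12, limma adjusted p = 0.017). Slc28a2, a sodium-driven transporter that brings purine nucleosides into the cell, had normalized counts of 317, 303 and 280 in CTRL, 137, 114 and 103 in Act, 338, 278 and 284 in Act + FST, and 340, 316 and 357 in FST. It fell by 1.35 on the log2 scale (SE 0.10, limma adjusted p = 4.0e-06), and no Act library reached the lowest of the others. Adk, the kinase that returns adenosine to AMP inside the cell, had 267, 261 and 251 in CTRL and 165, 171 and 164 in Act, and fell by 0.64 (SE 0.09, limma adjusted p = 0.00024). In Act + FST and FST it ranged from 237 to 302. The equilibrative nucleoside transporter gene Slc29a1 fell by 0.17 (limma adjusted p = 0.049), which was lost without CTRL replicate 2 or 3 or any Act library (limma adjusted p of 0.082 to 0.16), without the filter (0.064) and with median-of-ratios scaling (0.0505).

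Of the 7 tested genes of nucleotide release, 5 rose, 0 fell and 2 were not called, beside 10.3% of all genes higher and 9.97% lower. The list was chosen with earlier results of these data known, so this count is not support for a change of the pathway. Panx1, a channel that releases ATP, had normalized counts of 294, 293 and 281 in CTRL, 367, 374 and 411 in Act, 275, 274 and 299 in Act + FST, and 267, 292 and 309 in FST. The rise was 0.41 on the log2 scale (SE 0.07, limma adjusted p = 0.00086). The genes of volume-regulated anion channel subunits Lrrc8d, Lrrc8c and Lrrc8b rose by 0.28, 0.36 and 0.26 (limma adjusted p = 0.0050, 0.015 and 0.033). Lrrc8c was not called without CTRL replicate 2, CTRL replicate 3 or Act replicate 1 (limma adjusted p of 0.062 to 0.064), and Lrrc8b without those or Act replicate 2 (0.092 to 0.13). Gja1, a connexin gene named after its value was seen, had normalized counts of 58, 46 and 38 in CTRL and of 74, 74 and 63 in Act. Its Act + FST libraries were at 80, 59 and 58, and its FST libraries at 40, 37 and 31. It rose by 0.58 against CTRL (SE 0.19, limma adjusted p = 0.045). Act and Act + FST overlapped (difference 0.11, limma adjusted p = 0.74), and Act + FST was above FST by 0.84, which was called with the replicate block (limma adjusted p = 0.023) and not without it (0.62). The call against CTRL was lost without CTRL replicate 2 or 3 or any Act library (limma adjusted p of 0.062 to 0.18), with just the libraries compared (0.057) and with a mean of at least 50 (0.0503).

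Of the 7 inflammasome genes downstream of P2X7, 2 rose, 0 fell and 5 were not called. Il1b, the cytokine released on P2X7 activation, had normalized counts of 147, 122 and 86 in CTRL, 425, 410 and 445 in Act, 169, 124 and 52 in Act + FST, and 144, 92 and 76 in FST. It rose by 1.87 on the log2 scale (SE 0.36, limma adjusted p = 0.0026). The sensor gene Nlrp3 had 1040, 1021 and 989 in CTRL and 1157, 1134 and 1198 in Act, a rise of 0.19 (SE 0.06, limma adjusted p = 0.038) that was lost when any of the 6 libraries was left out (limma adjusted p of 0.053 to 0.13) and with quantile normalization (0.054).

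Of the other P2X receptors, 0 of 3 tested were called, and their levels were low, at 2 to 29 normalized counts. Of the 5 other P2Y and related receptors tested, P2ry12 and P2ry13 rose as described, and P2ry10b fell. P2ry10b had normalized counts of 223, 183 and 167 in CTRL and 122, 116 and 102 in Act (-0.74 on the log2 scale, SE 0.15, limma adjusted p = 0.0041). With the replicate block the ADP receptor gene P2ry1 was also called lower (-0.51, limma adjusted p = 0.048). P2ry10b has a close relative in P2ry10 and its counts may miss reads that fit both.

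**Figure D5:**
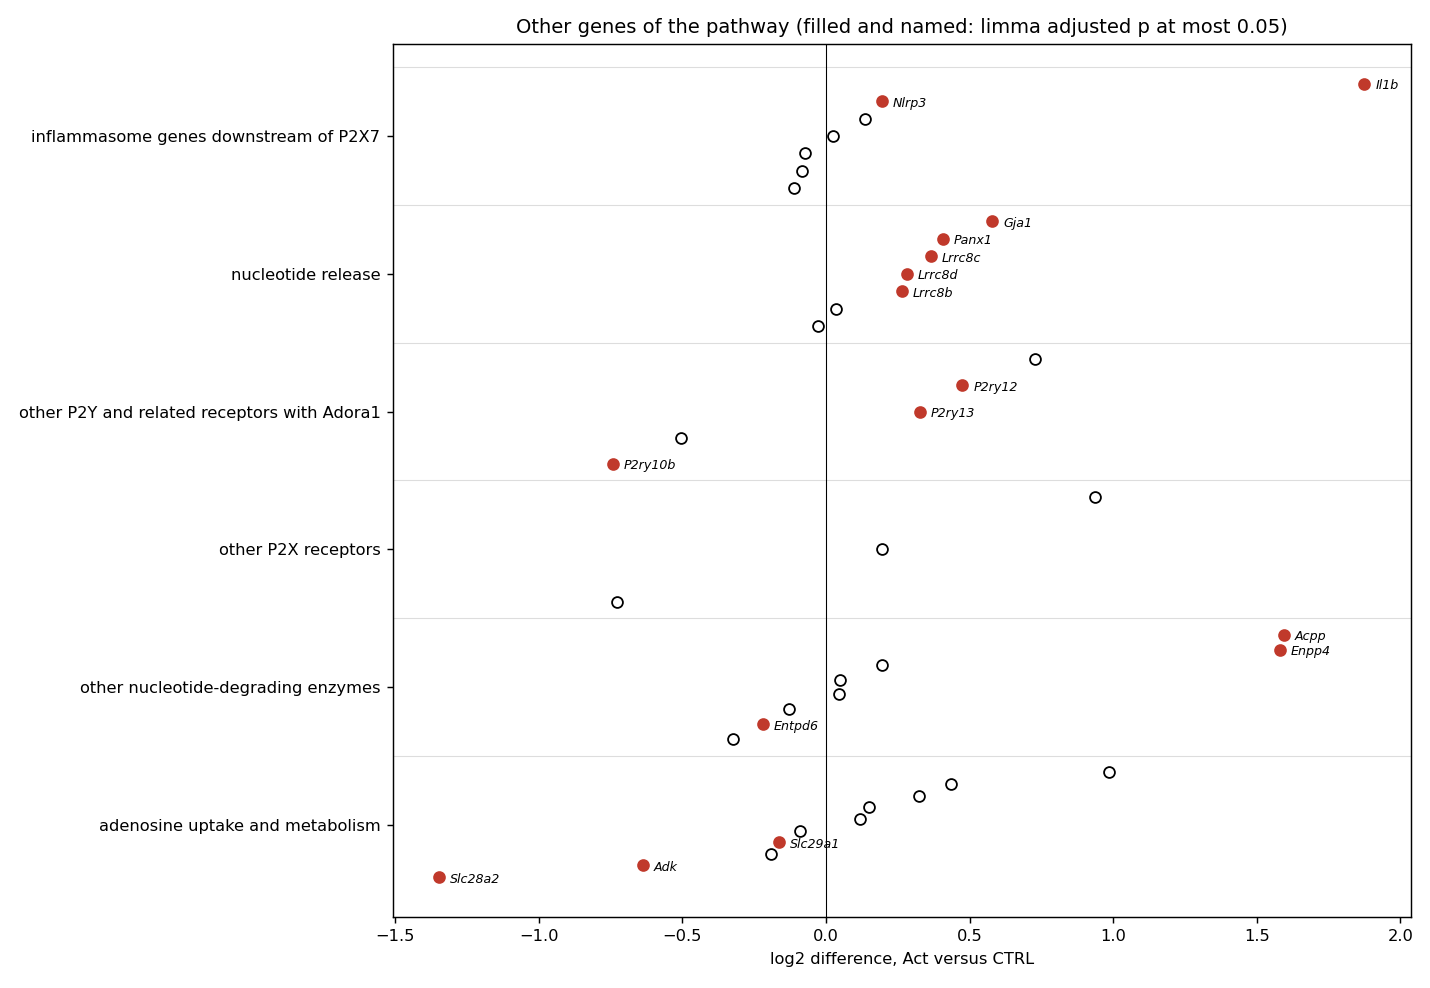
Log2 difference of Act versus CTRL (x axis) for the 40 tested genes of the 6 pathway lists (rows), with filled, named points for a limma adjusted p of at most 0.05. The 5 filled genes of nucleotide release lie between 0.26 and 0.58, and Slc28a2, at -1.35, is the lowest point.

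The genes most like Nt5e over the 12 libraries, by Pearson's r of log2(normalized count + 1) among 10628 genes with a mean of at least 50, were Hk2 (0.991), Abhd15 (0.988) and Sox4 (0.988). Those most like P2ry14 were Ctnnd2 (0.988), Zmat3 (0.986) and Pcyt1b (0.968). These values describe the same 12 libraries, in which Act stands apart from the other groups.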

How the data were processed

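Total RNA of 12 BMDM libraries was used by the authors for stranded mRNA sequencing with single-end reads. Per the methods, the authors trimmed reads with Trimmomatic 0.39, aligned them to mm10 with STAR 2.7.9a, counted them per gene with featureCounts 2.0.2, excluding reads that matched more than a single gene or place, and tested them with DESeq2 1.30.0. The values deposited by the authors are treated as a score: counts scaled per library and rounded to whole numbers. The scaling formula, the strand setting of the counting and any removal of duplicates are not given in the sources used here.

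The members and lists were chosen with earlier results of these data known. All 12 libraries entered 1 limma 3.58.1 model (R 4.3.3, trend on the mean, two-sided) of log2(normalized count + 1) with 4 group means, for the 14318 of 18376 genes with a mean of at least 5, with Benjamini-Hochberg adjustment over all genes tested. The fold change understates that of low genes. Simulated data with 200 changed genes served to test the model. No libraries held identical values. Replicate numbers come from the labels, and libraries with the same number deviated together, with correlations of 0.157 to 0.481 (mean 0.312) in 18 pairs. The 36 pairs with different numbers ranged from -0.358 to 0.169 (mean -0.155). Deviations from a group mean cancel out within the group, so the negative mean of these pairs is not separate support. The numbers were thus taken to pair the libraries. The main fit did not use this pairing, and adjusted p-values are from that fit unless the replicate block or another alternative is named. Named are all members and, from each pathway list, every DEG of Act versus CTRL and up to 4 genes with the smallest adjusted p, and for the largest rise and fall the 3 genes with the most similar pattern. Alternatives were pseudocounts of 0.5 and 5, no filter and a mean of at least 50, quantile and median-of-ratios scaling, just the libraries compared, the replicate block, leaving out each library, and a correction for reads that share a start position, which was added after the data were seen. Exon lengths come from GENCODE M21 and promoters from RefSeq.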

Additional observations from a re-analysis of the deposited data

Results flagged for a closer look

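The activin effect differed between cells without and with FST288 (limma interaction, adjusted p at most 0.05) for 10 of the named genes. Among all genes tested 6.74% were called, 3.99% higher and 2.75% lower. The pathway genes were named for a call in Act versus CTRL, which is a part of the interaction. Nt5e and Adora2a passed the filter through Act alone. The count of 10 is therefore not support for a change of the group or the pathway. Higher without FST288 were Nt5e by 4.08, Adora2a by 3.16, Acpp by 1.98, Il1b by 1.84, Enpp4 by 1.16, Panx1 by 0.44 and Lrrc8d by 0.38 on the log2 scale. Lower were Slc28a2 with -1.17, Adk with -0.57 and P2ry14 with -0.33. The adjusted p-values were 0.0031, 0.037, 0.012, 0.048, 0.017, 0.014 and 0.018 for the first group and 0.00077, 0.015 and 0.028 for the second. Over the alternatives the adjusted p ranged from 0.0030 to 0.068 for P2ry14, which was called in 13 of 20, from 0.0066 to 0.094 for Adora2a, called in 11 of 19, from 0.0011 to 0.12 for Il1b, called in 11 of 20, and from 6.3e-05 to 0.053 for Lrrc8d, called in 18 of 20. The other 6 were called under every alternative run. The P2ry14 call was lost without CTRL replicate 1 or 3, any Act replicate, or FST replicate 2 or 3, and the Adora2a call without CTRL replicate 1 or 3, Act replicate 2 or 3, Act + FST replicate 2 or 3, or FST replicate 1 or 2. The Il1b call was lost without CTRL replicate 2 or 3, any Act replicate, Act + FST replicate 2, or FST replicate 1 or 2, and with quantile normalization, and the Lrrc8d call without CTRL replicate 3 or FST replicate 1.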

How the results depend on the processing

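Of the 772 values of named genes recomputed under alternatives, 705 kept direction and side of the threshold, 59 lost the call and 1 gained it, and 7 uncalled ones changed sign. The number of the 10 genes called ranged from 2 to 4 in Act versus CTRL, 3 to 4 in Act versus Act + FST and 1 to 3 in the interaction when a library was left out, the last value of 1 without CTRL replicate 1 or 3, Act replicate 2 or 3, or FST replicate 2, where Nt5e was called. With a mean of at least 50, where 6 of the genes could be tested, it was 1 in each, namely P2ry14. The replicate block changed no call of these 10 genes. Among the pathway genes it raised the calls from 16 to 20 in Act versus CTRL and from 18 to 24 in Act versus Act + FST. It raised the interaction from 7 to 14 and Act + FST versus FST from 0 to 1 called. In Act versus Act + FST uncalled genes changed sign on the log2 scale. Leaving out a library gave -0.026 (without Act replicate 3) to 0.041 for P2ry2, with -0.0039 without Act + FST replicate 1. It gave -0.024 (without Act + FST replicate 1) to 0.061 for P2ry6, with -0.017 without Act + FST replicate 3, and quantile normalization gave -0.036. For Entpd1 it gave -0.041 to 0.044 (without Act + FST replicate 2), with 0.034 without Act replicate 3. The cause was not tested. Leaving the interaction to just the libraries compared was not run, since it uses all 12. No scaling moved the median of all genes by more than 0.0157. Depth limits the adenosine receptors and, outside Act, Nt5e.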

Other observations

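Genes of the pathway lists that were called in Act versus Act + FST but not in Act versus CTRL are given here as values and were named after these were seen. P2rx1, an ATP-gated channel, had 11, 24 and 11 normalized counts in CTRL, 7, 10 and 8 in Act, 21, 15 and 29 in Act + FST, and 23, 14 and 14 in FST, and was lower in Act than in Act + FST by -1.25 on the log2 scale (limma adjusted p = 0.021). Casp1, the inflammasome protease, had 453, 441 and 479 in Act and 512, 514 and 533 in Act + FST (-0.18, limma adjusted p = 0.018). With the replicate block the inflammasome genes Pycard and Il18 were also called lower in Act than in Act + FST. That made 2 of the 7 genes of this list higher and 3 lower. With the block 4663 of all 14318 genes tested were called in this comparison, 2453 higher and 2210 lower. The count is therefore not support for a change of the list. Slc29a2, an equilibrative nucleoside transporter, had 45, 44 and 47 in Act, 31, 29 and 38 in Act + FST and 35, 37 and 36 in CTRL (0.47, limma adjusted p = 0.046).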
